A study of Caenorhabditis elegans with 20 samples.

Results

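The *fbxb* and *fbxc* genes of *Caenorhabditis elegans* encode F-box proteins, and their members were taken here as every gene in the tables whose WormBase symbol starts with *fbxb-* or *fbxc-*. By this rule 133 of the 27375 tabulated genes are members, 93 *fbxb* and 40 *fbxc* genes. The name table of the annotation pairs 152 gene identifiers with such symbols, and 19 of them were not analysed here. All 133 members are annotated as protein-coding on assembly WBcel235.

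F-box proteins are the adapter subunits of SCF ubiquitin ligases, in which a Skp1-type protein tethers the F-box protein to a cullin scaffold and its RING partner. The F-box binds the Skp1-type protein, and the remainder of the protein binds the substrate that is to be ubiquitylated, so that the F-box protein sets which proteins the ligase marks. Nematodes have a greatly expanded set of F-box genes, most of them without a known substrate, and they often lie in tandem arrays of related copies.

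Messenger RNA was sequenced from whole, synchronized animals of the L4 stage grown at 20 °C, with 4 libraries from separate biological replicates per genotype. Genotypes with active HIF-1 were *egl-9(sa307)*, and strain OR3350, which has the mutations *egl-9(sa307)*, *hif-1(ia4)* and *unc-119(ed3)* and the integrated transgene *odIs131[hif-1::gfp, unc-119(+)]*, a line first made by microparticle bombardment of *hif-1(ia4)* animals. Genotypes with inactive HIF-1 were *egl-9(sa307); hif-1(ia4)*, called the double mutant here and drawn as egl-9 hif-1, and wild type (N2). The prolyl hydroxylase EGL-9 modifies the transcription factor HIF-1 in the presence of oxygen, which leads to its destruction, and 3 of the 4 genotypes, all but wild type, carry its mutation. The 4 *hif-1(ia4)* libraries enter none of the tables. The question asked of each comparison was which transcripts differ between animals with active and with inactive HIF-1.

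The deposited tables give, for each of 4 comparisons, the authors' log2 fold change fitted in edgeR, its likelihood ratio statistic, p-value and false discovery rate (FDR), and a mean level in log2 CPM (reads of a gene scaled to library size) that is the same in all tables. Values of single libraries were not used here, so the spread within a genotype and the overlap of groups are not given. The error given after ± is an approximate standard error (SE), the size of a log2 fold change divided by the root of its statistic. Genes were called at an FDR under 0.01. In RNA of whole animals, fewer cells that express a gene and less RNA per cell cannot be told apart. Checks of the genotypes gave these values: *rhy-1*, an upstream regulator of EGL-9, had a log2 fold change of 6.24 between *egl-9* and wild type (FDR 2.3e-81, edgeR) and of 5.68 between OR3350 and the double mutant (FDR 5.7e-71), and the *hif-1* transcript was 2.11 higher in *egl-9* than in the double mutant (FDR 1.2e-73).

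Most members were at the low end of the tables. Their median mean level was -3.73 log2 CPM, against 0.29 over all genes, and the lowest value listed for any gene was -4.09. Of the members, 95 (71.4%) had a mean level under -3 log2 CPM, against 34.9% of all genes, and 14 (10.5%) reached 0 log2 CPM, against 51.3% of all genes. The subfamilies differed in level: 12 of 40 *fbxc* genes but 2 of 93 *fbxb* genes reached 0 log2 CPM, with medians of -2.41 and -3.82. For 5 *fbxb* genes the log2 fold change was 0 in all 4 comparisons. The annotated exons of a member cover a median of 1083 bases, with a range of 540 to 2517 bases, so levels were also set against length. Per kilobase of exon, *fbxc-44* was highest at 4.36 (mean log2 CPM minus log2 of the exon length in kb), followed by *fbxc-45* at 3.81, *fbxc-50* at 3.79, *fbxc-58* at 3.31 and *fbxc-52* at 2.12. The tables give no error for these levels, so it was not tested which neighbours in this order differ.

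**Figure D1:**
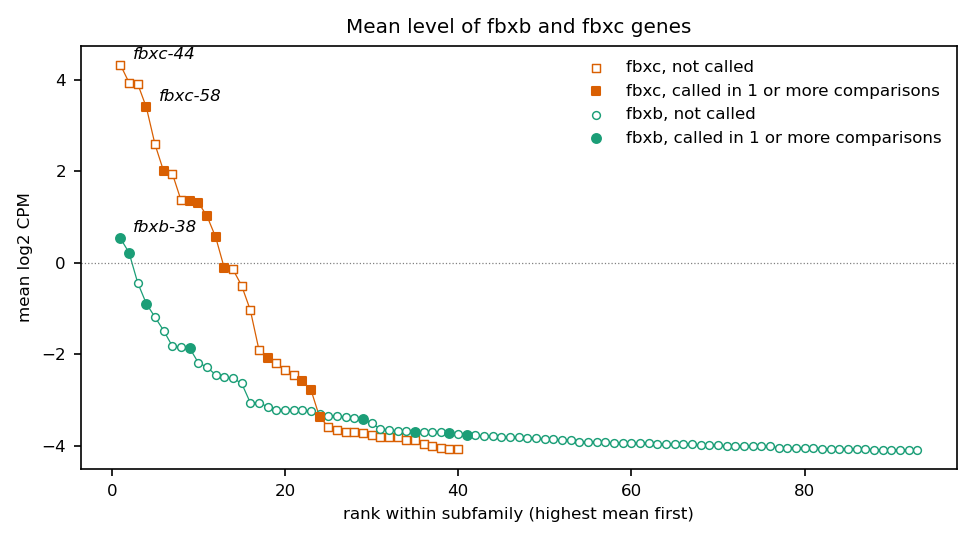
Mean level (log2 CPM, vertical axis) of each *fbxc* gene (squares) and *fbxb* gene (circles), ranked within its subfamily from highest to lowest, with filled symbols for genes called at an FDR under 0.01 in at least 1 of the 4 comparisons. *fbxc* genes reach 4.34 log2 CPM, the highest *fbxb* gene is *fbxb-38* at 0.54, and 78 of 93 *fbxb* but 17 of 40 *fbxc* genes lie under -3.

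Precision followed level. In *egl-9* against wild type, the median SE of the log2 fold change was 0.22 over the 14 members at 0 log2 CPM or above, 0.53 over the 24 members between -3 and 0, and 1.38 over the 84 members under -3 for which it could be computed. Fold changes of the members under -3 rest on few reads and depend on the small count that edgeR adds to every library, so their sizes are given as fitted and not as measured folds. A 2-fold change in a member with the median SE of this level could not be detected.

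Few members were called. At an FDR under 0.01 (edgeR), 19 of 133 members (14.3%) were called in at least 1 comparison, against 28% of all genes, and 114 were called in none. These 19 were 11 of the 40 *fbxc* and 8 of the 93 *fbxb* genes, and 8 of the 19 had a mean level of at least 0 log2 CPM. Between *egl-9* and wild type, 7 members were higher (5.26%) and 4 lower (3.01%), against 9.81% and 9.62% of all genes. Between *egl-9* and the double mutant, 5 were higher and 2 lower, against a background of 5.57% higher and 4.19% lower. For OR3350 against wild type, 5 members were higher and 4 lower (background 5.07% and 7.34%), and against the double mutant 5 were higher and 5 lower (background 5.72% and 6.24%). All of these shares were below those over all genes, which had the higher median level. Among the 14 members at 0 log2 CPM or above, *egl-9* had 2 higher and 4 lower than wild type, against 15.2% and 16.4% of the genes at that level, so that 2 of 14 (14.3%) lay near the background and 4 of 14 (28.6%) above it. In either direction, 42.9% of these 14 were called in *egl-9* against wild type (31.6% of genes at that level), 14.3% in *egl-9* against the double mutant (15%), 42.9% in OR3350 against wild type (21.3%) and 28.6% in OR3350 against the double mutant (20%). Of the 24 members between -3 and 0 log2 CPM, 16.7%, 8.33%, 8.33% and 16.7% were called in the same order of comparisons, against 20.8%, 12.8%, 9.93% and 10.7% of genes at that level. Of the 95 members under -3, the shares were 1.05%, 3.16%, 1.05% and 2.11%, against 0.995%, 0.858%, 0.377% and 0.576%, and these rest on 1 to 3 members each.

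**Figure D2:**
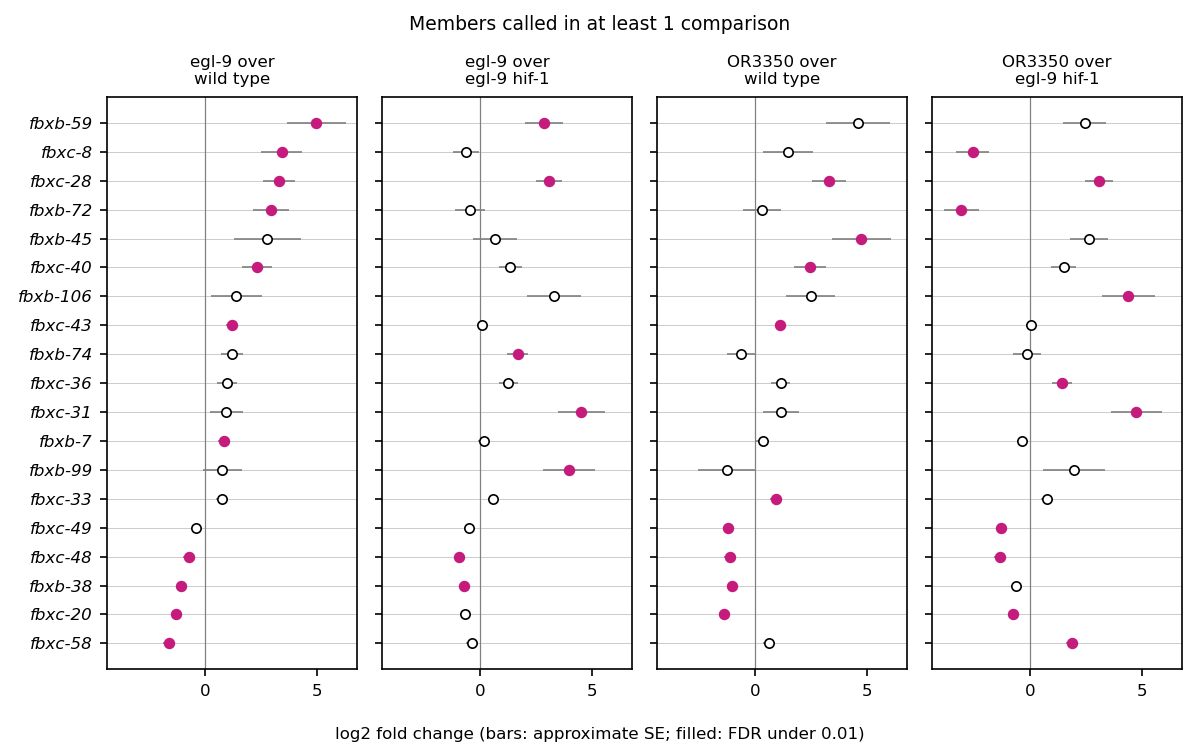
Log2 fold change (horizontal axis) of the 19 members called in at least 1 comparison, with 1 panel per comparison, bars for the approximate SE and filled points for an FDR under 0.01. *fbxc-28* lies between 3.08 and 3.31 and *fbxc-48* between -1.34 and -0.73 in the 4 panels, whereas *fbxc-58*, *fbxb-72* and *fbxc-8* change side between the first and the last panel.

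Across all members the fitted log2 fold changes leaned upward in *egl-9*. In *egl-9* against wild type 93 members had a positive value, 29 a negative value and 11 a value of 0. Over all 27375 genes, 12834 were positive, 11717 negative and 2824 at 0. The members had a median of 0.87, against 0 over all genes. The median was 0.61 in *egl-9* against the double mutant, 0.21 in OR3350 against wild type and 0.23 in OR3350 against the double mutant, each against 0 over all genes. In *egl-9* against wild type the lean was largest in weakly expressed members. Under -3 log2 CPM the median was 1.30, against 0 over all genes at that level, whose upper quartile was also 1.30. There, 11 of 95 members and 2824 of 9552 genes had a value of 0, and the fitted sizes rest on few reads. Between -3 and 0 the median was 0.58, against 0.10, and over the 14 members at 0 log2 CPM or above 0.11, against -0.01. In the same order of level, the medians were 1.03, 0.44 and 0.07 in *egl-9* against the double mutant. For OR3350 they were 0.06, 0.24 and 0.18 against wild type, and 0.66, 0.12 and -0.03 against the double mutant. By subfamily, the median in *egl-9* was 1.07 over *fbxb* and 0.77 over *fbxc* genes against wild type, and 0.61 over *fbxb* and 0.47 over *fbxc* genes against the double mutant. In OR3350 the order over all levels was the opposite. Against wild type the medians were 0.05 over *fbxb* and 0.82 over *fbxc* genes, and against the double mutant 0.00 and 0.70. The subfamilies differ in level, with 78 of 93 *fbxb* but 17 of 40 *fbxc* genes under -3 log2 CPM. Within each range of level, the *fbxc* median was the higher in all 4 comparisons, so the order did not reverse there. In *egl-9* against wild type the medians under -3 were 1.30 over *fbxb* and 1.39 over *fbxc* genes. Between -3 and 0 they were 0.14 and 0.99, and at 0 or above, with only 2 *fbxb* genes, -0.12 and 0.11. These medians are descriptions and were not tested, since related and neighbouring genes are not independent and the comparisons share genotypes.

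*fbxc-28* was the member higher in both genotypes with active HIF-1 whichever genotype they were compared with. It lies on chromosome II from 923821 to 925196 and was weakly expressed, at a mean of -2.77 log2 CPM. Its values in *egl-9* were 3.31 ± 0.70 against wild type (FDR 2.8e-05, edgeR) and 3.09 ± 0.57 against the double mutant (FDR 1.9e-06). In OR3350 it was 3.31 ± 0.76 above wild type (FDR 2.0e-04) and 3.08 ± 0.63 above the double mutant (FDR 3.1e-05). The difference of the double mutant from wild type, formed from these values, was 0.22 ± 0.67 (adjusted p = 0.91, approximate z test), and that of OR3350 from *egl-9* was -0.01 ± 0.67 (adjusted p listed as 1). Over all genes, 1.85% were called higher in all 4 comparisons.

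*fbxc-48* was lower in all 4 comparisons and was among the 14 members at 0 log2 CPM or above. This gene lies on chromosome II from 739553 to 740908. In *egl-9* it was -0.73 ± 0.23 from wild type (FDR 0.0097, edgeR) and -0.95 ± 0.23 from the double mutant (FDR 6.5e-04). OR3350 had values of -1.12 ± 0.25 against wild type (FDR 1.1e-04) and -1.34 ± 0.24 against the double mutant (FDR 1.7e-06), the last of these a level of 0.395 of that in the double mutant. The call against wild type in *egl-9* was close to the threshold and was lost at an FDR under 0.001. The formed differences were 0.22 ± 0.24 for the double mutant from wild type (adjusted p = 0.60, approximate z test) and -0.39 ± 0.24 for OR3350 from *egl-9* (adjusted p = 0.40). Over all genes, 1.41% were called lower in all 4.

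Other falls were called in some comparisons only. Against wild type, *fbxc-20* was -1.30 ± 0.21 in *egl-9* (FDR 2.9e-08, edgeR), and in OR3350 the value was -1.38 ± 0.23 (FDR 1.0e-07). Against the double mutant, *egl-9* was at -0.68 ± 0.21 (FDR 0.012) and OR3350 at -0.77 ± 0.23 (FDR 0.0081), so that 1 of its 4 values missed the threshold. An exon of *fbxc-20* overlaps the protein-coding gene F42G2.7 on the same strand, and reads of the shared bases may belong to either. *fbxb-38*, the *fbxb* gene of highest mean level, was -1.08 ± 0.19 from wild type in *egl-9* (FDR 5.0e-07), and OR3350 was at -1.02 ± 0.22 from wild type (FDR 4.4e-05), with -0.70 ± 0.19 in *egl-9* relative to the double mutant (FDR 0.0027). In OR3350 against the double mutant it was at -0.63 ± 0.21 (FDR 0.019). Both genes lie on chromosome II, *fbxb-38* from 2167691 to 2168763 and *fbxc-20* from 2419136 to 2420793.

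*fbxc-43* was higher in every genotype with the *egl-9* mutation than in wild type. It was 1.20 ± 0.24 higher in *egl-9* (2.30-fold, FDR 7.7e-06, edgeR) and 1.15 ± 0.25 higher in OR3350 (2.21-fold, FDR 6.2e-05). The formed difference of the double mutant from wild type was 1.11 ± 0.23 (adjusted p = 6.6e-05, approximate z test). For *fbxc-43* against the double mutant, *egl-9* was at 0.09 ± 0.22 (FDR 0.88) and OR3350 at 0.04 ± 0.22 (FDR listed as 1). Its neighbour on the same strand is *fbxc-44*, the member of highest level, at 4.34 log2 CPM. *fbxc-44* was called in none of the comparisons, and against wild type *egl-9* was at 0.39 ± 0.14 (FDR 0.029) and OR3350 at 0.27 ± 0.15 (FDR 0.22).

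A further 3 members were called in opposite directions in different comparisons. *fbxc-58*, on chromosome IV from 9371508 to 9373206, is among the higher expressed members at 3.40 log2 CPM. Its level in *egl-9* was 0.331 of that in wild type, a log2 fold change of -1.59 ± 0.27 (FDR 4.6e-08, edgeR), whereas in OR3350 it was 1.87 ± 0.27 above the double mutant (3.64-fold, FDR 1.7e-10). Between OR3350 and wild type it was at 0.63 ± 0.26 (FDR 0.070), and between *egl-9* and the double mutant at -0.36 ± 0.26 (FDR 0.41). The formed differences were -1.23 ± 0.26 for the double mutant from wild type (adjusted p = 1.0e-04, approximate z test) and 2.23 ± 0.26 for OR3350 from *egl-9* (adjusted p = 8.0e-15). By these values *egl-9* and the double mutant were both low, and OR3350 was not below wild type.

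In the other 2, at low levels, *egl-9* and the double mutant were above wild type, and OR3350 was below the double mutant. The difference of OR3350 from *egl-9* was called in neither. *fbxb-72*, at -0.89 log2 CPM, was 2.95 ± 0.79 higher in *egl-9* than in wild type (FDR 0.0014, edgeR) and -3.07 ± 0.78 from the double mutant in OR3350 (FDR 0.0012). Its formed difference of the double mutant from wild type was 3.39 ± 0.78 (adjusted p = 3.8e-04, approximate z test), and that of OR3350 from *egl-9* was -2.64 ± 0.78 (adjusted p = 0.016). *fbxc-8*, at -2.08 log2 CPM, was 3.42 ± 0.90 higher in *egl-9* than in wild type (FDR 0.0010) and -2.55 ± 0.74 from the double mutant in OR3350 (FDR 0.0056). For the double mutant against wild type the formed difference of *fbxc-8* was 4.04 ± 0.85 (adjusted p = 8.5e-05), and for OR3350 against *egl-9* it was -1.94 ± 0.85. OR3350 was at 0.31 ± 0.86 for *fbxb-72* and at 1.49 ± 1.10 for *fbxc-8* against wild type, neither of them called. The name table gives the symbol *fbxc-8* to 4 genes, of which WBGene00019072 is the one in the tables. Its neighbour *fbxc-12* has the same annotated exon length of 1413 bases, so reads may be split among copies, which was not tested. *fbxc-12* itself, at -3.88 log2 CPM, was at 2.79 ± 1.51 for *egl-9* against wild type (FDR 0.17) and at -3.45 ± 1.48 for OR3350 against the double mutant (FDR 0.089).

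*fbxc-49* was lower in OR3350 than in the 3 other genotypes. It was at -1.20 ± 0.23 against wild type (FDR 6.2e-06, edgeR) and at -1.29 ± 0.22 against the double mutant (FDR 3.4e-07), and the formed difference from *egl-9* was -0.81 ± 0.21 (adjusted p = 0.0041, approximate z test). In *egl-9* it was at -0.39 ± 0.20 against wild type (FDR 0.15) and at -0.48 ± 0.19 against the double mutant (FDR 0.069). With the largest of the 4 SEs in place of their root mean square, the difference between OR3350 and *egl-9* was no longer called (adjusted p = 0.014). OR3350 differs from *egl-9* in the transgene, in the source of HIF-1 and in its history of bombardment and crossing, and these cannot be told apart here. Nor could a difference in sequencing batch be examined, since the provider of each library is not named.

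**Figure D3:**
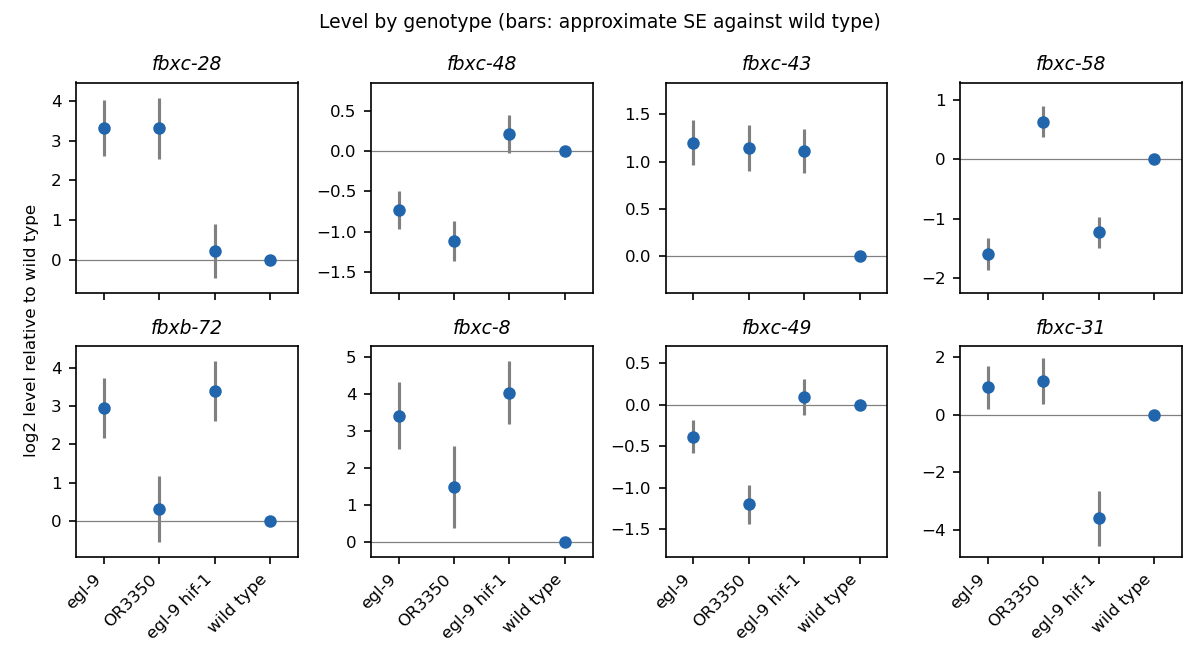
Log2 level relative to wild type (vertical axis, own scale in each panel) of 8 members in *egl-9*, OR3350, the double mutant and wild type, with bars for the approximate SE of the difference from wild type, which is set at 0. In *fbxc-28* and *fbxc-48* the genotypes with active HIF-1 stand apart, in *fbxc-43* the 3 genotypes with the *egl-9* mutation lie between 1.11 and 1.20, and in *fbxc-58*, *fbxb-72* and *fbxc-8* *egl-9* lies near the double mutant.

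Counted over all members, the formed comparison of the double mutant with wild type called 3 higher and 3 lower (adjusted p under 0.01, approximate z test), against 4.85% and 2.51% of all genes. Higher were *fbxc-43*, *fbxb-72* and *fbxc-8*. Lower were *fbxc-58*, *fbxc-31* and *fbxb-24*, the last at -1.55 ± 0.45 (adjusted p = 0.0085), whose exons overlap *faah-4* on the opposite strand. With the largest of the 4 SEs, the calls of *fbxc-31* (adjusted p = 0.019) and *fbxb-24* (adjusted p = 0.030) were lost, and the other 4 were not. For OR3350 against *egl-9*, *fbxc-58* was higher and *fbxc-49* lower, against 1.46% and 2.12% of all genes.

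The members are concentrated on chromosome II, which holds 86 of them (64.7%), against 15.8% of all placed genes. It has 35 of the 40 *fbxc* genes, and the other 5 are on chromosome IV. Of the 19 called members, 13 are on chromosome II. Grouping members whose gene starts lie within 20 kb of the next gave 21 clusters of at least 2 members, with 95 members in all, and 38 members on their own. The largest cluster has 18 *fbxc* genes and *fbxb-30* within 94.0 kb of chromosome II, from 907448 to 1001451.

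In the 4 deposited comparisons, the called members of this cluster were all higher. *fbxc-31* was lower in the formed comparison of the double mutant with wild type, a call lost with the largest SE. Of its 19 genes, 5 (26.3%) were called in at least 1 comparison, where 28% of all genes were. This background is not matched for level. Of the 19, 12 had a mean level under -3 log2 CPM and 2 reached 0, against 34.9% and 51.3% of all genes. In *egl-9* against wild type 17 had a positive log2 fold change and 2 a value of 0, with a median of 1.14. For *egl-9* against the double mutant 16 were positive (median 1.66), for OR3350 against wild type 15 (median 1.37) and for OR3350 against the double mutant 15 (median 1.84), and 14 were positive in all 4. Calls at an FDR under 0.01 (edgeR) numbered 2, 2, 3 and 3 higher in these comparisons in the same order, and 0 lower in each, where 9.81%, 5.57%, 5.07% and 5.72% of all genes were higher. At an unadjusted p under 0.05, 6, 12, 8 and 11 were higher, and 0, 0, 0 and 1 lower. Over all 133 members, which include the cluster, 18, 28, 26 and 31 were higher at that p, and 7, 6, 7 and 8 lower. The shares of all genes at that p are not given here, so these counts have no background beside them. Of the 133, 93, 84, 76 and 74 had a positive log2 fold change in the same order. Of all 27375 genes, 12834, 11682, 11893 and 10946 did. Whether the cluster leans upward more than the other members was not tested.

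Besides *fbxc-28*, *fbxc-40* was called against wild type, at 2.32 ± 0.67 in *egl-9* (FDR 0.0036, edgeR) and at 2.47 ± 0.71 in OR3350 (FDR 0.0046), with 1.36 ± 0.51 (FDR 0.050) and 1.52 ± 0.56 (FDR 0.037) against the double mutant. *fbxc-31* was called against the double mutant, where *egl-9* was at 4.54 ± 1.06 (FDR 3.7e-04) and OR3350 at 4.76 ± 1.13 (FDR 4.7e-04). Against wild type it was not called, with *egl-9* at 0.95 ± 0.75 (FDR 0.38) and OR3350 at 1.17 ± 0.81 (FDR 0.39). Its formed difference of the double mutant from wild type was -3.59 ± 0.95 (adjusted p = 0.0029, approximate z test). Its mean level of -3.37 log2 CPM makes these sizes uncertain. *fbxc-33*, at 0.57 log2 CPM, was called in OR3350 against wild type only, at 0.93 ± 0.26 (FDR 0.0037), beside 0.76 ± 0.25 in *egl-9* against wild type (FDR 0.012). *fbxc-36* was called in OR3350 against the double mutant, at 1.43 ± 0.44 (FDR 0.0098). The best expressed gene of the cluster, *fbxc-32* at 1.37 log2 CPM, was not called, with values from 0.63 ± 0.51 in *egl-9* against wild type (FDR 0.40) to 1.42 ± 0.52 in OR3350 against the double mutant (FDR 0.036). Sequences of these genes were not used here, so it was not tested how far reads of near-identical neighbours are shared.

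**Figure D4:**
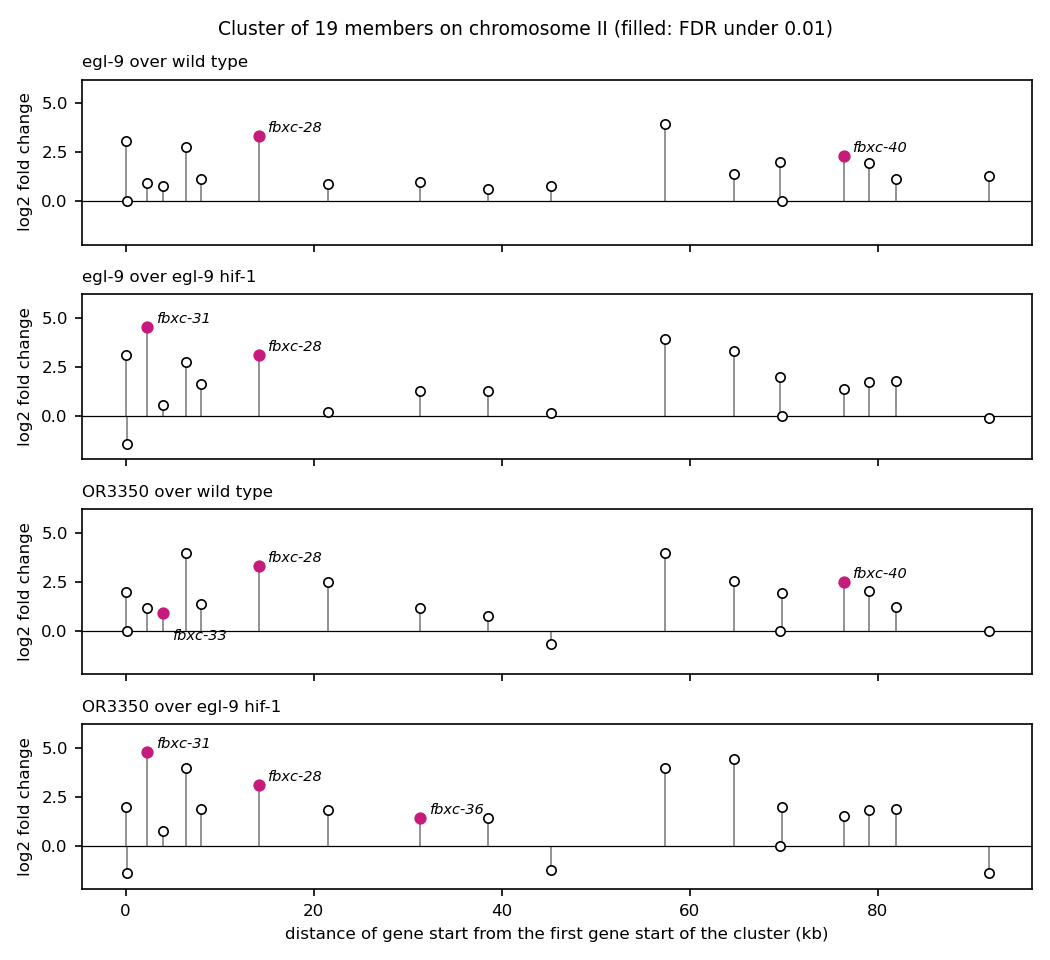
Log2 fold change (vertical axis) of the 19 genes of the largest cluster on chromosome II by the distance of their gene start from the first (kb, horizontal axis), with 1 panel per comparison and filled points for an FDR under 0.01. In *egl-9* against wild type 17 genes lie above 0 and the other 2 at 0, and the filled points, *fbxc-28*, *fbxc-31*, *fbxc-33*, *fbxc-36* and *fbxc-40*, are all above 0.

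This cluster holds 1 of the 93 *fbxb* genes, *fbxb-30*, and the 8 called *fbxb* genes lie elsewhere. Of these 8, 4 had a mean level under -3 log2 CPM: *fbxb-59*, *fbxb-45*, *fbxb-106* and *fbxb-99*. *fbxb-59*, at -3.42 log2 CPM on chromosome V, was 4.99 ± 1.31 higher in *egl-9* than in wild type (FDR 0.0011, edgeR) and 2.85 ± 0.85 higher than in the double mutant (FDR 0.0088). In OR3350 it was at 4.60 ± 1.44 against wild type (FDR 0.011) and 2.46 ± 0.97 against the double mutant (FDR 0.057). Its exons overlap *fbxa-113* on the opposite strand. The F-box B genes *fbxb-45* (4.76 ± 1.33 in OR3350 against wild type, FDR 0.0034), *fbxb-106* (4.41 ± 1.18 in OR3350 against the double mutant, FDR 0.0023) and *fbxb-99* (3.98 ± 1.15 in *egl-9* against the double mutant, FDR 0.0062) were each called once. *fbxb-99* shares exonic bases with a protein-coding gene on the opposite strand. *fbxb-74*, which shares exonic bases with a piRNA gene on the same strand, was called in *egl-9* against the double mutant, at 1.68 ± 0.47 (FDR 0.0048), and *fbxb-7*, at 0.22 log2 CPM, in *egl-9* against wild type, at 0.85 ± 0.27 (FDR 0.0082).

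Of the 5 members of highest mean level, *fbxc-58* alone was called. *fbxc-45* had log2 fold changes of 0.14 ± 0.13, 0.05 ± 0.12, -0.01 ± 0.13 and -0.09 ± 0.13 in *egl-9* against wild type, *egl-9* against the double mutant, OR3350 against wild type and OR3350 against the double mutant. *fbxc-52* lay between 0.08 ± 0.16 and 0.23 ± 0.16 in the same comparisons, and *fbxc-50*, with larger errors, between 0.19 ± 0.42 and 0.64 ± 0.42. None of these was called (FDR from 0.34 to listed as 1, edgeR).

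Other subunits of SCF ligases and regulators of cullin ligases were described from a list of 32 core genes, of which 30 were in the tables. Of these, 11 were higher in *egl-9* than in wild type, 9 higher than in the double mutant, and OR3350 had 8 higher than in wild type and 8 higher than in the double mutant (FDR under 0.01, edgeR), where 9.81%, 5.57%, 5.07% and 5.72% of all genes were higher. The core genes called lower numbered 0 in each, and 4, 1, 1 and 1 at an unadjusted p under 0.05 in the same order. For that p the shares of all genes are not given here. Of the 21 core genes at 0 log2 CPM or above, 23.8%, 14.3%, 9.52% and 9.52% were called higher. At that level, 15.2%, 8.25%, 7.84% and 9.39% of all genes were. Between -3 and 0 log2 CPM, 6 of 7 core genes were called higher in each comparison, all of them Skp1-related. There, 13%, 7.81%, 6.78% and 5.41% of all genes were higher. The 7 genes higher in all 4 (1.85% of all genes were) were *ubc-12*, which encodes the NEDD8-conjugating enzyme, and 6 Skp1-related genes, *skr-5*, *skr-7*, *skr-10*, *skr-13*, *skr-14* and *skr-15*. Of these, *skr-7* had a value of 4.27 between *egl-9* and wild type (FDR 5.1e-08) and *skr-14* of 4.36 (FDR 8.9e-07), both with a mean level under 0 log2 CPM. The core scaffold *cul-1* was at -0.16 (FDR 0.32) and the Skp1 homolog *skr-1* at -0.06 (FDR 0.80) in *egl-9* against wild type. Of 3 sperm genes and 2 yolk protein genes looked up as signs of stage, *spe-9* and *vit-6* were called in at least 1 comparison, and *msp-3*, *msp-10* and *vit-2* in none (FDR under 0.01, edgeR). *spe-9* was -0.63 from wild type in *egl-9* (FDR 3.5e-04), OR3350 was at -0.91 from wild type (FDR 5.1e-07) and at -0.75 from the double mutant (FDR 5.8e-05), and *egl-9* was at -0.47 from the double mutant (FDR 0.017). *vit-6* was -1.98 from wild type in *egl-9* (FDR 0.0045), against -0.73 in OR3350 (FDR 0.48), and OR3350 was at 0.94 from the double mutant (FDR 0.28). In *egl-9* against wild type, *msp-3* was at -0.62 (FDR 0.013), *msp-10* at -0.49 (FDR 0.23) and *vit-2* at -2.05 (FDR 0.023), and *msp-10* was positive against the double mutant, with *egl-9* at 0.30 (FDR 0.54) and OR3350 at 0.56 (FDR 0.21). Their part in the values of the F-box genes was not tested.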

How the data were processed

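Genes were joined by WormBase identifier. Symbols came from the reference name table (25024 of 27375 genes matched) and positions from the Ensembl annotation of WBcel235 (26866 placed), the assembly of release WS245 to which the authors aligned. The authors aligned and counted the reads with STAR 2.5.1a, and used the generalized linear models of edgeR with dispersions estimated per gene, over 4 libraries per genotype. The edgeR version used by the authors, how reads of several genes or loci were counted, and whether strand was used are not given in the sources used here. Libraries came from 2 sequencing providers, not named per library, so a batch could not be examined.

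The log2 values in the deposited tables are the authors' fold changes for 4 comparisons and their mean log2 CPM. As a score, the authors deposited the statistic of their likelihood ratio test. The p-values and FDR in the deposited tables are the authors', adjusted over 27375 genes by Benjamini-Hochberg. These are the authors' own comparisons, the basis of all values here, without values or depth of single libraries, which were not analysed here. The 4 log2 fold changes of a gene close to within 4.9e-08.

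Subtracting deposited log2 fold changes gave 2 more, the double mutant minus wild type and OR3350 minus *egl-9*. They were tested with a two-sided approximate z test, with the root mean square of the 4 approximate SEs, adjusted over all genes and called at 0.01, with scipy 1.17.1, numpy 2.4.6, pandas 2.3.3 and matplotlib 3.10.9 under Python 3.11.15. The steps were tested on simulated log2 levels with normal errors and the same small SE in all 4 comparisons of a gene. Read counts were not simulated, so this does not cover weakly expressed members. Genes were named by rule: members called the same way in all 4 comparisons or in opposite directions, the 4 largest rises and falls per comparison among called members at 0 log2 CPM or above, the 5 of highest level, and core SCF genes. Called members under 0 log2 CPM, *fbxb-24*, *fbxc-12* and *fbxc-32* were named after their values were seen. Members and lists were chosen with earlier results of these data known. Alternatives were other FDR thresholds, a minimum fold, a filter on low values, another SE and centring. Protein and promoter comparisons were not made, as no sequences were used here.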

Additional observations from a re-analysis of the deposited data

Results flagged for a closer look

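The change against wild type differed between OR3350 and *egl-9* for 2 members, by the approximate z test of the difference itself. For *fbxc-58* the log2 fold change against wild type was 0.63 ± 0.26 in OR3350 and -1.59 ± 0.27 in *egl-9*, a difference of 2.23 ± 0.26 (adjusted p = 8.0e-15). For *fbxc-49* it was -1.20 ± 0.23 in OR3350 and -0.39 ± 0.20 in *egl-9*, a difference of -0.81 ± 0.21 (adjusted p = 0.0041), which was no longer called with the largest of the 4 SEs (adjusted p = 0.014). Values of single libraries were not used here, so how many libraries show each direction is not given.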

How the results depend on the processing

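Members called between *egl-9* and wild type numbered 11, and 5 at an FDR under 0.001 and 7 when only genes at 0 log2 CPM or above were kept. Between *egl-9* and the double mutant there were 7, and 17 at an FDR under 0.05, 3 at an FDR under 0.001 and 3 after the filter. Between OR3350 and the double mutant there were 10, and 23, 5 and 4 under the same settings. Called the same way in all 4 comparisons were 2 members, 5 at an FDR under 0.05, which adds *fbxc-40*, *fbxc-20* and *fbxb-38*, and 1, *fbxc-28*, at an FDR under 0.001 or with a minimum of 2-fold. After the filter they were *fbxc-48* and *fbxc-20*, since *fbxc-28* was not tested there. The formed differences called 6 members for the double mutant against wild type, 2 after the filter, and 2 for OR3350 against *egl-9*, 4 at an adjusted p under 0.05 and 1 with the largest SE. The remaining counts stayed within 1.5 times. Over the named members, 107 of 122 calls under an alternative kept their side of the threshold, 15 were lost and 0 reversed. Neither the looser FDR threshold nor centring could lose one of these calls, and no threshold could reverse one. The 107 thus include calls that were kept by construction. Centring moved log2 fold changes by at most 0.03. No paired analysis was possible because the tables hold no values per library, and for the same reason leaving out each replicate was not run.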

Other observations

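The median mean level was -3.73 log2 CPM over the *fbxb* and *fbxc* genes, against -0.19 over the *fbxa* genes, the other large F-box family. Of 165 *fbxa* genes, 76 (46.1%) had a mean level of at least 0 log2 CPM, and 54 (32.7%) were called in at least 1 of the 4 comparisons at an FDR under 0.01 (edgeR), against 28% of all genes. In *egl-9*, 21 were higher and 21 lower when set against wild type, and 17 higher and 7 lower when set against the double mutant, where 9.81%, 9.62%, 5.57% and 4.19% of all genes were called. OR3350 had 15 higher and 8 lower than wild type, and 20 higher and 7 lower than the double mutant, where 5.07%, 7.34%, 5.72% and 6.24% of all genes were called. In all 4 comparisons 7 were higher (4.24%) and 3 lower (1.82%), against 1.85% and 1.41% of all genes. Over genes at 0 log2 CPM or above, 42.9% of *fbxb* and *fbxc* genes and 31.6% of *fbxa* genes were called in *egl-9* against wild type. The shares were 14.3% of *fbxb* and *fbxc* genes and 14.5% of *fbxa* genes in *egl-9* against the double mutant, 42.9% and 18.4% in OR3350 against wild type, and 28.6% and 25% in OR3350 against the double mutant. The difference between the families was not tested.

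Other listed F-box genes, whose symbols are not *fbxa*, *fbxb* or *fbxc*, were expressed at 3.45 to 6.98 log2 CPM. Of 9 listed, *skpt-1*, a homolog of mammalian SKP2, was higher in *egl-9* than in wild type at a log2 fold change of 0.54 (FDR 0.0065, edgeR) and higher than in the double mutant at 0.70 (FDR 4.6e-04). *sel-10*, the homolog of the F-box protein FBW7, was at 0.01 in *egl-9* against wild type (FDR listed as 1), and *lin-23*, the homolog of beta-TrCP, was at 0.06 (FDR 0.78). In OR3350 against the double mutant, 4 of the 9 were higher: *fsn-1* at 0.76 (FDR 1.4e-04), *skpt-1* at 0.63 (FDR 0.0018), *mec-15* at 0.46 (FDR 0.0043) and *lin-23* at 0.35 (FDR 0.0097). Of genes at 0 log2 CPM or above, as all 9 are, 9.39% were called higher in that comparison. In *egl-9*, 1 of the 9 was called higher against wild type (15.2% of genes at that level) and 2 against the double mutant (8.25%). For OR3350 against wild type the count was 0 (7.84%).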
